A study of Mus musculus with 12 samples.

Results

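The interferon-stimulated genes are 38 genes, taken from a list of named members by gene symbol, out of 35812 gene IDs in the count table of a mouse hippocampus study. Symbols were matched by Ensembl ID, and all 38 members were in the table. Hippocampal RNA came from male C57BL/6 mice of 8 weeks, with 3 independent mice in each of 4 groups. F0_Dep were stress-induced depressive mice and F0_Ctl were normal mice, and how the stress was applied was not stated in the labels. F1_Dep were sons of stress-induced depressed males and F1_Ctl were sons of normal males. The labels give no litter or father for the F1 mice, so mice of 1 group may share one, and p-values measure the spread between these mice. Sequencing lane names are given for the F1_Ctl libraries alone, so a lane or batch of F1_Ctl cannot be told apart from the group.

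Interferons are cytokines released on infection or when nucleic acids are sensed in the wrong compartment. Type I interferons bind the Ifnar1 and Ifnar2 receptor, and the kinases Jak1 and Tyk2 pass the signal to Stat2, which acts with Irf9 at the interferon-stimulated response element (ISRE) in target promoters, while interferon gamma acts mainly through GAS elements. The targets degrade viral RNA, stop translation, trap virions, modify proteins with Isg15 and raise antigen presentation, and in brain they are expressed by microglia, endothelial cells, neurons and choroid plexus among others.

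Promoter windows from RefSeq on GRCm38.p6 were found for 29 of the 38 members. Each window was set around the gene start that RefSeq gives, which is not always that of GENCODE. The windows of Irf9, Psmb8 and Psmb9 lay inside their GENCODE genes, and those of Lgals3bp and Dtx3l mostly so. The ISRE core was searched as GAAANNGAAA and, for the other strand, TTTCNNTTTC, and the GAS core as TTCNNNGAA, which reads the same on both strands. An ISRE core was present in 16 of the 29 windows, against 3.44% of all 32851 RefSeq windows of the same length. A GAS core was present in 8 of the 29, against 8.3% of all windows, and 9 members had neither. More than 1 ISRE match was found in 7 members, in 4 of which the matches overlapped each other, and in 1 member, Bst2, a GAS match overlapped an ISRE match. A match is a description of these letters and not a shown binding site. The 160 bases before the RefSeq start of 9 genes are printed, with ISRE cores in capitals, and positions are counted from that start. By the GENCODE starts most of the Lgals3bp stretch and the last bases of the Gbp3 stretch lay inside the gene. These are 7 members with a core that recur in the results, followed by Zc3hav1 and Lgals3bp, which recur in the results and have no core in their windows. In Isg15, on the minus strand at chr4:156200819-156200978, the 3 overlapping cores began 78, 72 and 66 bases before the gene. Ifit3 and Ifit3b lie on the plus strand at chr19:34583369-34583528 and chr19:34607797-34607956. Their windows were alike when shifted by 32 bases, with 201 of 268 bases the same without gaps. Oas1a (chr5:120907526-120907685, minus) and Gbp3 (chr3:142559884-142560043, plus) had 2 overlapping cores each. In Bst2 (chr8:71537473-71537632, minus) the cores began 130 and 124 bases before the gene, and in B2m (chr2:122147527-122147686, plus) the single core began 139 bases before it. Zc3hav1 (chr6:38354604-38354763) and Lgals3bp (chr11:118401960-118402119) are both on the minus strand.
Isg15: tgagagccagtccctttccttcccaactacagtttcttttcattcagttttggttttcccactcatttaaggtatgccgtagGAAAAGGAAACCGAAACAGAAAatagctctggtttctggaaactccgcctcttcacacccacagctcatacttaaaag
Ifit3: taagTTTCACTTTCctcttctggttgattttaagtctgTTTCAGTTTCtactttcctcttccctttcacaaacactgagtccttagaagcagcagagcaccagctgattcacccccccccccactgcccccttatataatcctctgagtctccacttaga
Ifit3b: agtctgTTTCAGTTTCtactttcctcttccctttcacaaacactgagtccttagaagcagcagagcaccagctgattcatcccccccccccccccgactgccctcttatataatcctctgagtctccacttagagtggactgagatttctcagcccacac
Oas1a: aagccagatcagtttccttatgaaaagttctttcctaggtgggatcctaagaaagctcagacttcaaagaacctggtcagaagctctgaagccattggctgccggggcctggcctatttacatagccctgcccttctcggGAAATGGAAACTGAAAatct
Gbp3: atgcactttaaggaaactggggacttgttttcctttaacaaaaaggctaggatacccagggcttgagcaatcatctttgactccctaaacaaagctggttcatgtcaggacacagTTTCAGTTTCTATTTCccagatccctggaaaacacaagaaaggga
Bst2: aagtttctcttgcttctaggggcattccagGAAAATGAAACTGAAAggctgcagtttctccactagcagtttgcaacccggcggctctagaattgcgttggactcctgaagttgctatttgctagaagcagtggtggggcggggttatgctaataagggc
B2m: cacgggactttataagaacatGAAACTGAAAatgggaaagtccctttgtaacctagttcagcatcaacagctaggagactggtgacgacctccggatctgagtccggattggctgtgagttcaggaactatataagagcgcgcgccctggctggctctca
Zc3hav1: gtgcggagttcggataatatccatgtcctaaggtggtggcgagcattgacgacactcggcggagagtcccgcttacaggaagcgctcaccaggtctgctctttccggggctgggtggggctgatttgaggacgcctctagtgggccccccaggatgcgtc
Lgals3bp: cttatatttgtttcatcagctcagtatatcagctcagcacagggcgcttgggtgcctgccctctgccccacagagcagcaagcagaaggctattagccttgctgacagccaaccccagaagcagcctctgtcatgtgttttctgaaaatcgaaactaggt

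Library totals of the deposited counts lay between 18277208 and 23083678. Levels are given as CPM (counts scaled by library size with the TMM method). Some libraries stood apart by tissue markers. The summed level of 11 choroid plexus markers, genes of the fluid-secreting epithelium beside the hippocampus, was 161 to 498 CPM in F0_Dep, 177 to 6480 CPM in F0_Ctl, 3640 to 6250 CPM in F1_Dep and 337 to 12400 CPM in F1_Ctl. The highest values of the control groups were those of F0_Ctl 3 and F1_Ctl 3. Striatum markers, 9 genes, summed to 282 to 1520 CPM in F1_Dep, highest in F1_Dep 1, and to 197 to 290 CPM over the other groups. The 7 markers of hippocampal neurons were detected in every group, at sums from 736 to 1640 CPM. None of the marker genes used here was at 0 in every library. In bulk tissue, fewer cells of a type and less RNA per cell cannot be told apart.

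Per gene length, the members spanned a wide range. Levels between genes are compared as FPKM, fragments per kilobase of transcript scaled to library size, which the authors gave for 9 libraries, those of F0_Dep, F0_Ctl and F1_Dep. B2m, the light chain of class I antigen-presenting molecules, had the highest mean at 83.4 FPKM, followed by the small membrane protein gene Ifi27 at 34.0, the secreted galectin-binding glycoprotein gene Lgals3bp at 8.39, Irf9 at 6.50 and Stat2 at 6.03 FPKM. These 5 were the members with a mean of at least 5 FPKM. The means of 16 members were under 1 FPKM, down to Oas2 at 0.201 and Mx1 at 0.0321. Mx1 and Oas1b are known to be defective alleles in C57BL/6 mice, and GENCODE lists Oas1b and Mx2 as polymorphic pseudogenes rather than as protein-coding. Mx1 was listed at 0 FPKM in 3 of the 9 libraries and Oas1b in 1, although the count table held 22 to 45 reads for Mx1 and 19 to 67 for Oas1b in every library.

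Across libraries, the members were highest together in 2 control libraries and lowest together in F0_Dep 3, and F0_Dep had the lowest mean level of the groups. F0_Ctl 3 held the highest level of the 12 libraries for 17 of the 38 members and F1_Ctl 3 for 10, while F0_Dep 3 held the lowest for 12. The group mean was lowest in F0_Dep for 23 members, in F1_Dep for 9, in F0_Ctl for 3 and in F1_Ctl for 3. It was highest in F0_Ctl for 18 members, in F1_Ctl for 10, in F1_Dep for 8 and in F0_Dep for 2. These orders of libraries and groups were not counted over all genes, so whether they are particular to the members was not tested. Taking each library's median over the members of log2 CPM, centred on each gene's mean of 12 libraries, the level was -0.15, -0.13 and -0.43 in F0_Dep and 0.06, -0.04 and 0.60 in F0_Ctl. In F1_Dep it was -0.09, 0.03 and -0.07, and in F1_Ctl -0.03, -0.18 and 0.42. All F0_Dep libraries lay below all F0_Ctl libraries on this scale, with F0_Ctl 3 far above the rest of its group. F1_Ctl 2 lay below F0_Dep 1 and F0_Dep 2. The F1_Dep libraries lay close together (-0.04 ± 0.06, SD, n = 3) and inside the range of F1_Ctl (0.07 ± 0.31).

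**Figure D1:**
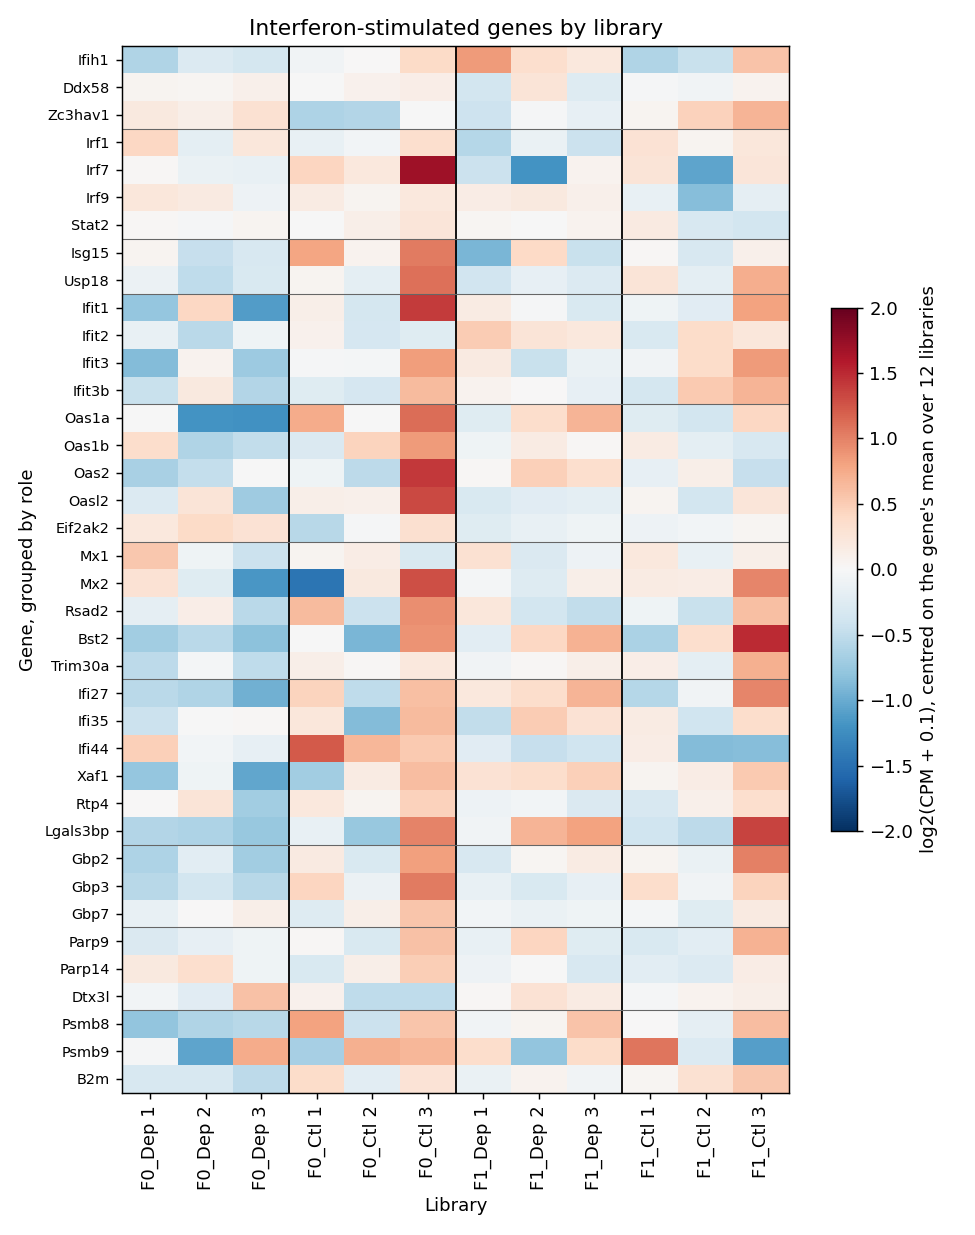
Level of each of the 38 genes (rows, grouped by role) in each of the 12 libraries (columns, by group), as log2(CPM + 0.1) centred on the gene's mean over the libraries; red is above and blue below that mean. F0_Ctl 3 and F1_Ctl 3 are red over most rows, and the F0_Dep columns are mostly blue.

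The comparison of stressed with normal mice asks what a depression-like state goes with in the hippocampus. In F0_Dep 31 of the 37 members tested had a lower fitted level than in F0_Ctl, but none was called at an adjusted p under 0.05 by edgeR's quasi-likelihood test, in which 0.495% of all 16163 genes were called. Psmb9, an immunoproteasome subunit, was not tested because its counts ran from 1 to 13. The median log2 fold change of the members was -0.62, against -0.035 over all genes, and without F0_Ctl 3 it was -0.245, with 26 members lower. An unadjusted p under 0.05 was reached by 12 of the 37 members, 11 of them lower, which is 32.4% against 19.7% of all genes. DESeq2 called 2 members (B2m and Gbp3, both lower, among 1080 genes called) and limma on FPKM called 3 of the 24 it could test (B2m, Ifi27 and Isg15, all lower, among 2929 of 13819 genes). All F0_Dep libraries lay below all F0_Ctl libraries for 10 members, or 27.0%, where the share was 13.7% of all genes, and above them for 1 member, Zc3hav1, or 2.7%, against 13.7% of all genes.

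Antigen processing genes had among the smallest p-values. B2m was at 63.1, 63.1 and 54.8 CPM in F0_Dep and at 102.4, 68.1 and 95.7 CPM in F0_Ctl. Every F0_Dep mouse was below every F0_Ctl mouse, though F0_Ctl 2 came close. The log2 fold change was -0.56 ± 0.16 (SE, adjusted p = 0.0999 by edgeR). Psmb8, a subunit of the immunoproteasome, which makes peptides for class I molecules, was at 0.869, 0.998 and 1.04 CPM in F0_Dep and at 2.80, 1.14 and 2.36 CPM in F0_Ctl, a log2 fold change of -1.11 ± 0.37 (adjusted p = 0.141 by edgeR). The groups did not overlap in counts, but by FPKM they did: Psmb8 had 1.10, 1.22 and 2.13 FPKM in F0_Dep and 2.15, 2.001 and 1.92 FPKM in F0_Ctl.

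Guanylate-binding proteins are interferon-induced GTPases that attack the membranes around intracellular pathogens. Gbp3, whose promoter carries the overlapping cores printed above, had the smallest p of the members in this comparison. It was at 3.15, 3.602 and 3.16 CPM in F0_Dep and at 6.36, 4.325 and 9.72 CPM in F0_Ctl. The groups did not overlap, and the log2 fold change was -1.04 ± 0.26 (adjusted p = 0.08 by edgeR), and -0.68 without F0_Ctl 3. With F0_Ctl 2 left out, Gbp3 and B2m were called (adjusted p = 0.0248 and 0.0296 by edgeR), among 373 of 16451 genes called. Over all alternatives the adjusted p ran from 0.0128 to 0.284 for Gbp3 and from 0.023 to 0.34 for B2m. Of the other members of the family, Gbp2 was lower in mean, at 1.90 ± 0.37 CPM in F0_Dep against 3.40 ± 1.38 CPM in F0_Ctl, and Gbp7 was nearly level at 6.37 ± 0.59 and 7.23 ± 2.04 CPM (SD, n = 3 each).

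Isg15, a ubiquitin-like protein joined to other proteins after interferon, was at 1.30, 0.887 and 0.982 CPM in F0_Dep and at 2.24, 1.33 and 2.68 CPM in F0_Ctl. The lowest F0_Ctl mouse was just above the highest F0_Dep mouse, and the log2 fold change was -0.97 ± 0.39 (adjusted p = 0.202 by edgeR). By FPKM, limma gave Isg15 a difference of -0.89 ± 0.25 on the log2(FPKM + 1) scale (adjusted p = 0.0327). Usp18, the protease that removes Isg15 and damps the receptor, averaged 0.656 ± 0.103 CPM in F0_Dep and 1.16 ± 0.65 CPM in F0_Ctl.

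Transcription factors of the pathway divided. Irf7, which drives interferon genes themselves and is strongly interferon-induced, was at 1.74, 1.55 and 1.53 CPM in F0_Dep and at 2.34, 1.996 and 5.77 CPM in F0_Ctl. F0_Ctl 3 was more than the other two F0_Ctl mice together. The log2 fold change was -1.07 ± 0.48 (adjusted p = 0.248 by edgeR), and -0.42 without F0_Ctl 3. Irf9 and Stat2, which carry the type I signal to the ISRE, were nearly level: Irf9 averaged 16.8 ± 2.0 CPM in F0_Dep and 17.2 ± 0.9 CPM in F0_Ctl, and Stat2 33.5 ± 0.9 and 36.2 ± 3.2 CPM. Irf1, the factor most induced by interferon gamma, overlapped too, at 8.67 ± 1.83 CPM in F0_Dep and 8.02 ± 1.49 CPM in F0_Ctl.

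Among genes that act on viral RNA, the Ifit family binds RNA with foreign caps. Ifit3 was at 2.66, 5.21 and 2.945 CPM in F0_Dep and at 4.84, 4.80 and 8.90 CPM in F0_Ctl, so that the groups overlapped (log2 fold change -0.78 ± 0.35, adjusted p = 0.241 by edgeR, and -0.41 without F0_Ctl 3). Ifit1 followed the same libraries, with 2.72 CPM in F0_Dep 2 and 5.49 CPM in F0_Ctl 3 as the group maxima, while Ifit2 was nearly level at 6.78 ± 1.13 CPM in F0_Dep and 7.23 ± 1.17 CPM in F0_Ctl. The Oas enzymes make oligoadenylates that switch on an RNA-degrading enzyme. Oas1a had the largest fitted fold of all members, -1.74 ± 0.59 (adjusted p = 0.149 by edgeR), but on few reads: 0.380, 0.111 and 0.109 CPM in F0_Dep and 0.713, 0.380 and 0.953 CPM in F0_Ctl, with 2 to 21 reads in any library. Oas2 was at 0.493 ± 0.144 CPM in F0_Dep and 0.982 ± 0.806 CPM in F0_Ctl, with F0_Ctl 3 the highest library at 1.91 CPM.

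Effectors that act on virus particles and cells were mostly lower in mean, by fitted level in 4 of 5 of the group of Mx1, Mx2, Rsad2, Bst2 and Trim30a and in 6 of 6 of the group that holds Ifi27, Ifi44, Xaf1 and Lgals3bp. Bst2, the membrane protein that tethers budding virions, was at 1.74, 1.94 and 1.58 CPM in F0_Dep and at 2.85, 1.47 and 5.40 CPM in F0_Ctl (log2 fold change -0.89 ± 0.55, adjusted p = 0.394 by edgeR, and -0.29 without F0_Ctl 3). The F0_Ctl values straddled those of F0_Dep, and F0_Ctl 3 was again the highest. Rsad2, which makes a chain-terminating nucleotide, averaged 1.15 ± 0.28 CPM in F0_Dep and 1.87 ± 0.84 CPM in F0_Ctl. Ifi27 was at 17.5, 16.7 and 13.03 CPM in F0_Dep and at 35.0, 17.9 and 38.7 CPM in F0_Ctl, and Ifi44 at 1.41, 0.942 and 0.873 CPM in F0_Dep and at 2.44, 1.62 and 1.45 CPM in F0_Ctl. Neither pair of groups overlapped, by a narrow margin in both genes.

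A few members were on the other side. Zc3hav1, a zinc-finger protein that binds viral RNA rich in CpG and directs its decay, was at 10.05, 9.53 and 10.8 CPM in F0_Dep and at 5.70, 5.80 and 8.76 CPM in F0_Ctl. All F0_Dep mice were above all F0_Ctl mice, with a log2 fold change of 0.58 ± 0.21 (adjusted p = 0.16 by edgeR). Eif2ak2, the kinase that halts translation on double-stranded RNA, was at 10.9, 12.2 and 11.4 CPM in F0_Dep and at 6.31, 9.22 and 11.7 CPM in F0_Ctl, and Dtx3l, the ubiquitin ligase partner of Parp9, averaged 6.44 ± 2.06 CPM in F0_Dep and 4.75 ± 1.22 CPM in F0_Ctl. Both overlapped. Fold changes of members other than the 3 of smallest p and Irf7, Ifit3, Isg15, Bst2 and B2m were picked after their values were seen.

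Marker sums of vessels and red blood cells were lower in F0_Dep than in F0_Ctl. The sum of 9 endothelial markers was 238 to 268 CPM in F0_Dep and 288 to 330 CPM in F0_Ctl, and that of 5 pericyte markers 139 to 143 CPM in F0_Dep and 171 to 206 CPM in F0_Ctl. The 10 microglial markers summed to 308 to 334 CPM in F0_Dep and 318 to 491 CPM in F0_Ctl, and 5 markers of border macrophages to 4.21 to 7.58 CPM in F0_Dep and 0.713 to 2.32 CPM in F0_Ctl. The 5 red blood cell markers summed to 35.3 to 47.0 CPM in F0_Dep and 49.8 to 197 CPM in F0_Ctl, without overlap, and all 5 had a lower fitted level in F0_Dep (median log2 fold change -1.44). Monocyte and neutrophil markers, 5 genes, went the other way, at 2.77 to 3.27 CPM in F0_Dep and 1.22 to 2.36 CPM in F0_Ctl. The 7 lymphocyte markers summed to 4.47 to 4.88 CPM in F0_Dep and 2.04 to 5.22 CPM in F0_Ctl. All 11 choroid plexus markers had a lower fitted level in F0_Dep (median log2 fold change -2.77), though their sums overlapped. A lower level was also fitted for 4 of 5 oligodendrocyte markers (median -0.52), with overlapping sums. The part of these cells and tissues in the values of the interferon-stimulated genes was not tested.

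**Figure D2:**
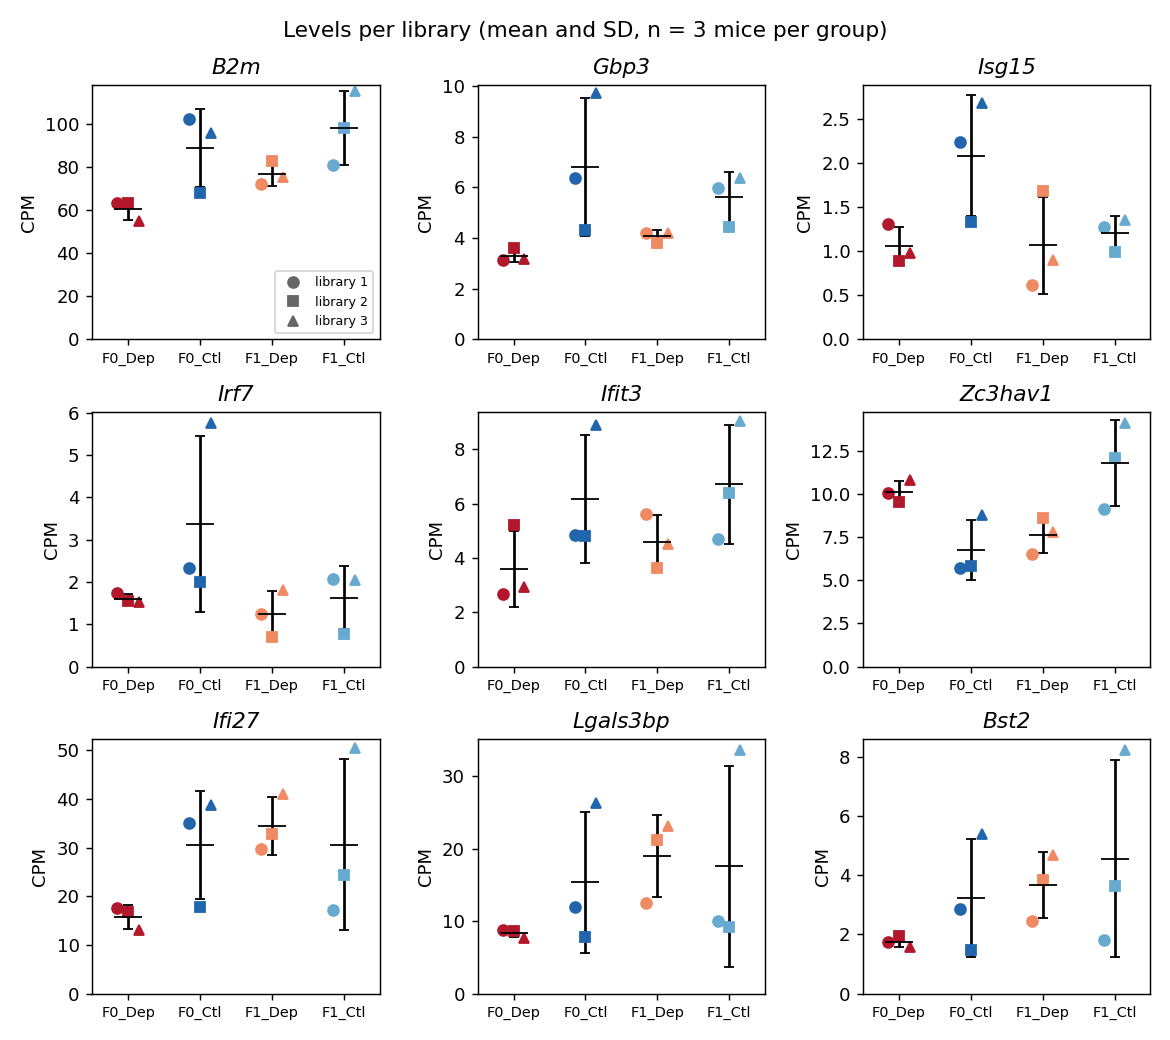
CPM of 9 genes in each library by group; points are libraries 1 to 3 of a group, the long mark is the mean and the bar the SD (n = 3 mice). B2m and Gbp3 have all F0_Dep points below all F0_Ctl points, Zc3hav1 has them above, and Irf7 shows F0_Ctl 3 apart from every other library.

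The comparison of sons of depressed males with sons of normal males asks whether the state of the fathers goes with a difference in their sons. The members' fold changes scattered about 0. None of 37 was called by edgeR's quasi-likelihood test, with 0.167% of all genes called, and DESeq2 called none either (541 genes called). The median log2 fold change was -0.09, against -0.019 over all genes, with 23 members lower in F1_Dep. It turned to 0.067 without F1_Ctl 3, with 16 members lower, and was -0.147 without F1_Ctl 1 and -0.153 without F1_Ctl 2. An unadjusted p under 0.05 was reached by 4 members (10.8%, against 14.8% of all genes). All F1_Dep libraries were above all F1_Ctl libraries for 1 member (2.7%, against 8.71% of all genes) and below for 4 (10.8%, against 10.3%).

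The 3 members of smallest p were 2 transcription factors and an RNA-binding effector. Zc3hav1 was at 6.53, 8.61 and 7.79 CPM in F1_Dep and at 9.14, 12.05 and 14.1 CPM in F1_Ctl. The groups did not overlap, and F1_Dep was the lower, opposite in sign to the F0 comparison (log2 fold change -0.62 ± 0.20, adjusted p = 0.201 by edgeR). Irf9 was at 17.3, 17.8 and 16.7 CPM in F1_Dep and at 14.0, 8.585 and 13.7 CPM in F1_Ctl, a log2 fold change of 0.51 ± 0.17 (adjusted p = 0.201 by edgeR). Its groups did not overlap, with F1_Ctl 2 the lowest library of all 12. Irf1 was at 5.14, 7.06 and 5.67 CPM in F1_Dep and at 9.45, 8.03 and 9.08 CPM in F1_Ctl, also without overlap (-0.57 ± 0.20, adjusted p = 0.217 by edgeR). Mean Irf9 was 17.3 CPM in F1_Dep, 17.2 CPM in F0_Ctl, 16.8 CPM in F0_Dep and 12.1 CPM in F1_Ctl. F1_Ctl, whose lane or batch cannot be told apart from the group, was thus the group apart. Mean Zc3hav1 was also highest in F1_Ctl, at 11.8 CPM, with 10.1 CPM in F0_Dep and 6.75 CPM in F0_Ctl. Mean Irf1 was lowest in F1_Dep, at 5.96 CPM, against 8.02 to 8.86 CPM in the other groups.

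B2m was at 72.1, 82.7 and 75.4 CPM in F1_Dep and at 81.0, 98.0 and 115.0 CPM in F1_Ctl, with a small overlap (log2 fold change -0.35 ± 0.16, adjusted p = 0.32 by edgeR). Ifit3 was at 5.61, 3.615 and 4.50 CPM in F1_Dep and at 4.70, 6.38 and 9.03 CPM in F1_Ctl (-0.55 ± 0.34, adjusted p = 0.483 by edgeR). For both, F1_Ctl 3 was the highest library of its group, and without it the log2 fold changes were -0.20 for B2m and -0.25 for Ifit3. Irf7 was at 1.23, 0.689 and 1.80 CPM in F1_Dep and at 2.07, 0.770 and 2.05 CPM in F1_Ctl (-0.40 ± 0.49, adjusted p = 0.763 by edgeR). Isg15 was at 0.617, 1.68 and 0.900 CPM in F1_Dep and at 1.275, 0.9905 and 1.35 CPM in F1_Ctl (-0.17 ± 0.39, adjusted p = 0.893 by edgeR). Bst2 was at 2.47, 3.83 and 4.68 CPM in F1_Dep and at 1.80, 3.63 and 8.235 CPM in F1_Ctl (-0.31 ± 0.52, adjusted p = 0.839 by edgeR). These last 3 overlapped widely, and the sign turned to 0.465 for Bst2 when F1_Ctl 3 was left out and to 0.097 for Isg15 when F1_Dep 1 was left out. Without F0_Ctl 3, F1_Ctl 3 and F1_Dep 1 together, Lgals3bp was called, higher in F1_Dep than in F1_Ctl (log2 fold change 1.21 ± 0.19, adjusted p = 0.0123 by edgeR). That fit called 338 of 16255 genes. Its F1_Dep libraries, 2 and 3, had choroid plexus marker sums of 6250 and 5880 CPM. Its F1_Ctl libraries, 1 and 2, had sums of 337 and 1010 CPM. The part of choroid plexus in this call was not tested. Without F1_Ctl 1, Stat2 was called, higher in F1_Dep (0.38 ± 0.09, adjusted p = 0.047 by edgeR), among 678 of 16465 genes called. Endothelial markers summed to 250 to 275 CPM in F1_Dep and 217 to 287 CPM in F1_Ctl, and microglial markers to 382 to 418 CPM in F1_Dep and 294 to 529 CPM in F1_Ctl. All 9 striatum markers had a higher fitted level in F1_Dep (median log2 fold change 1.61), each at an unadjusted p under 0.05 by edgeR, but only 1 without overlap. Of 7 hippocampal neuron markers, 3 were lower in F1_Dep without overlap, and 4 had a higher fitted level. The part of these tissues in the values of the members was not tested.

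**Figure D3:**
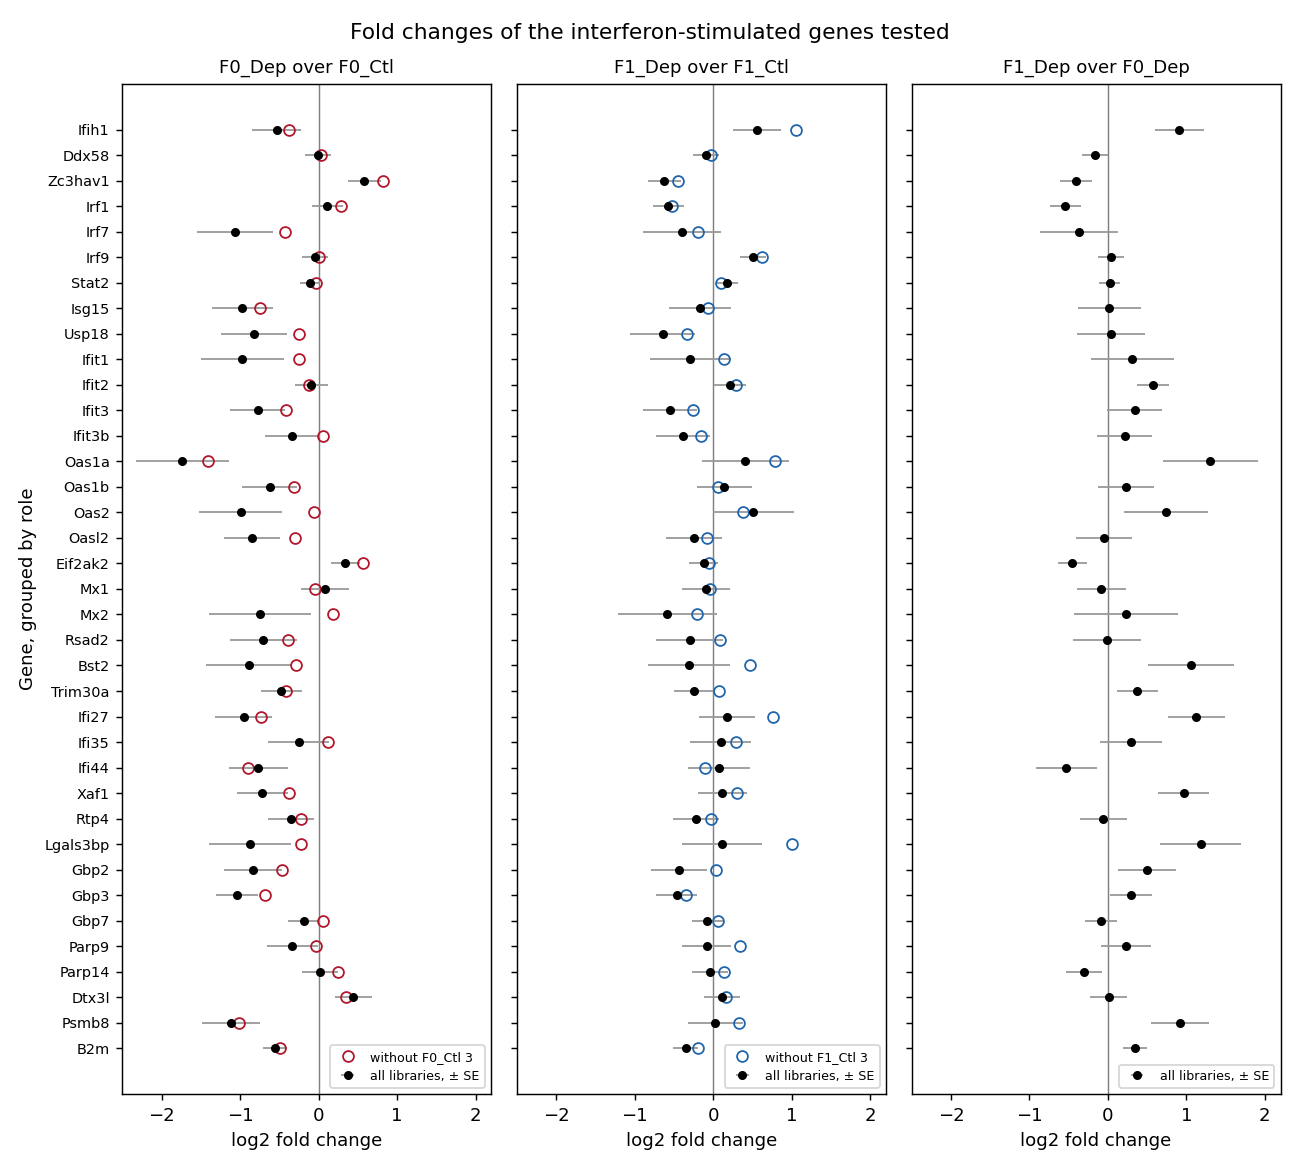
Log2 fold change of each of the 37 tested genes (filled points, bars are ± 1 SE, n = 3 mice a group) in 3 comparisons; open circles leave out F0_Ctl 3 on the left and F1_Ctl 3 in the middle panel. On the left 31 of 37 points lie below 0 and most move toward 0 without F0_Ctl 3; in the middle they scatter about 0, and on the right 25 lie above it.

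When sons of depressed males were set beside the stressed mice, 25 of the 37 members had a higher fitted level in F1_Dep than in F0_Dep, with a median log2 fold change of 0.23 against 0.006 over all genes. The median was 0.062 without F0_Dep 3 and 0.082 without F1_Dep 2. None was called by edgeR's quasi-likelihood test, in which 2.88% of all genes were called. DESeq2 and limma on FPKM each called Ifi27 and Xaf1, both higher in F1_Dep, among 1506 and 1655 genes. An unadjusted p under 0.05 was reached by 9 members (24.3%, against 22.3% of all genes). All F1_Dep libraries were above all F0_Dep libraries for 10 members (27.0%, against 22.6% of all genes) and below for 3 (8.11%, against 20.4%). Fitted on these 6 libraries alone, 8 members were called, but so were 3746 of 15540 genes. Those 8 were B2m, Bst2, Ifi27, Ifih1, Ifit2, Lgals3bp and Xaf1, higher in F1_Dep, and Eif2ak2, lower.

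Ifi27 was at 29.7, 32.7 and 41.1 CPM in F1_Dep and at 17.5, 16.7 and 13.03 CPM in F0_Dep, a log2 fold change of 1.13 ± 0.36 (adjusted p = 0.104 by edgeR, and 0.00176 to 0.306 over the alternatives). Xaf1, an antagonist of an inhibitor of cell death, was at 7.25, 7.62 and 8.28 CPM in F1_Dep and at 3.42, 5.60 and 2.84 CPM in F0_Dep (0.97 ± 0.32, adjusted p = 0.113 by edgeR). Ifih1, the sensor of long double-stranded RNA, was at 8.02, 5.55 and 5.09 CPM in F1_Dep and at 2.88, 3.602 and 3.44 CPM in F0_Dep (0.91 ± 0.31, adjusted p = 0.119 by edgeR). In each of these genes all F1_Dep mice were above all F0_Dep mice. With F1_Ctl 3 left out of the shared estimate of spread, Ifi27 and Ifih1 were called (adjusted p = 0.0305 and 0.0363 by edgeR), among 1154 of 16467 genes called.

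B2m was also without overlap, at 76.7 ± 5.4 CPM in F1_Dep and 60.3 ± 4.8 CPM in F0_Dep (SD, n = 3 each; log2 fold change 0.35 ± 0.16, adjusted p = 0.218 by edgeR). So was Bst2, at 3.66 ± 1.12 CPM in F1_Dep and 1.75 ± 0.18 CPM in F0_Dep (1.06 ± 0.55, adjusted p = 0.271 by edgeR). Lgals3bp was at 12.55, 21.3 and 23.2 CPM in F1_Dep and at 8.80, 8.59 and 7.745 CPM in F0_Dep, and Ifit2 averaged 10.1 ± 1.1 CPM in F1_Dep and 6.78 ± 1.13 CPM in F0_Dep. Ifit3, Isg15 and Irf7 overlapped, with log2 fold changes of 0.34 ± 0.35, 0.02 ± 0.40 and -0.37 ± 0.50 (adjusted p = 0.584, 0.982 and 0.69 by edgeR). Isg15 was low in both groups, at 1.07 ± 0.55 CPM in F1_Dep and 1.06 ± 0.22 CPM in F0_Dep.

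Lgals3bp and Bst2 were high in libraries with high choroid plexus markers. The centred marker level was 1.54, 2.78 and 2.77 in F1_Dep, -1.41, -0.64 and -2.60 in F0_Dep, 2.64 in F0_Ctl 3 and 3.82 in F1_Ctl 3. Lgals3bp was above 20 CPM in F0_Ctl 3 (26.4), F1_Dep 2 (21.3), F1_Dep 3 (23.2) and F1_Ctl 3 (33.6), the 4 libraries of highest marker level, and at 12.55 CPM or less in the rest. Bst2 was highest in F1_Ctl 3 at 8.235 CPM and F0_Ctl 3 at 5.40 CPM. Ifi27 was at 50.4 CPM in F1_Ctl 3, but also at 35.0 CPM in F0_Ctl 1, where the choroid plexus level was -3.18. Meningeal fibroblast markers, 8 genes, summed to 89 to 173 CPM in F1_Dep and 59.8 to 80.8 CPM in F0_Dep, but 6 of the 8 had a lower fitted level in F1_Dep (median log2 fold change -0.54, 1 called lower). Microglial markers summed to 382 to 418 CPM in F1_Dep and 308 to 334 CPM in F0_Dep, and all 10 had a higher fitted level in F1_Dep (median 0.29), 8 of them without overlap. Oligodendrocyte markers, 5 genes, summed to 3470 to 4210 CPM in F1_Dep and 1730 to 1920 CPM in F0_Dep. Without F0_Ctl 3, F1_Ctl 3 and F1_Dep 1 together, Lgals3bp was called in F1_Dep against F0_Dep (1.40 ± 0.17, adjusted p = 0.00173 by edgeR), among 1347 of 16255 genes called. The part of these cells and tissues in the values of the members was not tested.

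**Figure D4:**
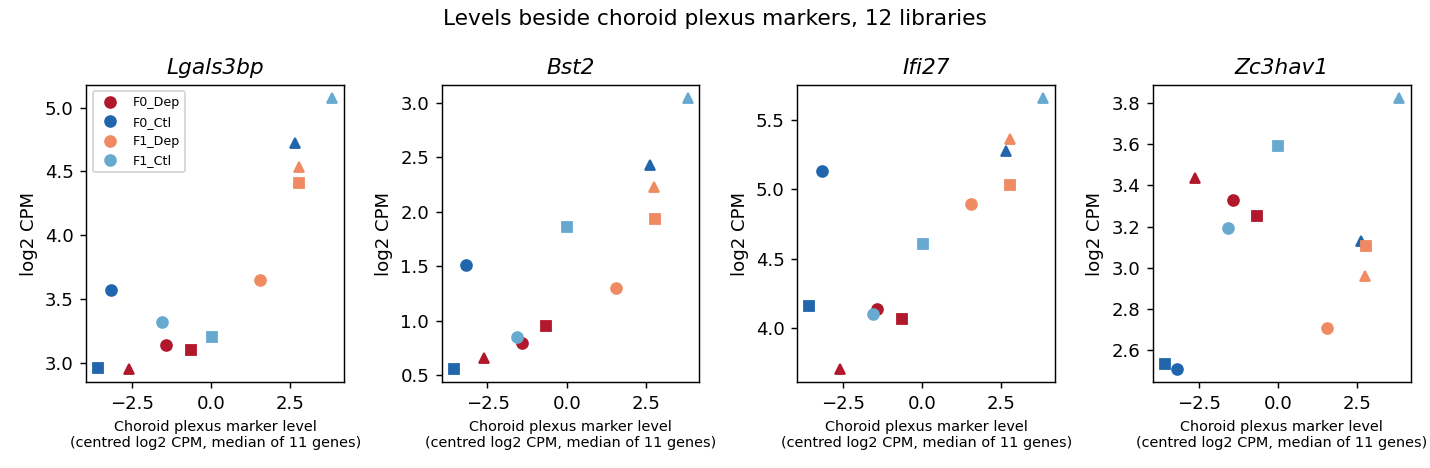
Log2 CPM of 4 genes against the choroid plexus marker level (median of 11 genes, centred log2 CPM) in 12 libraries, coloured by group; circles, squares and triangles are libraries 1, 2 and 3 of a group. Lgals3bp and Bst2 are highest in F1_Ctl 3 and F0_Ctl 3 at the right, Ifi27 has 1 high library at the left, and Zc3hav1 follows no such order.

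Against normal F0 mice, the sons of depressed males had 26 of 37 members lower, with a median log2 fold change of -0.21 (all genes -0.014), and -0.04 without F0_Ctl 3. The log2 fold change of Irf7 was -0.80 and that of Gbp3 -0.39 without that library. None was called by edgeR's quasi-likelihood test, DESeq2 or limma, and edgeR called 0.0% of all genes. An unadjusted p under 0.05 was reached by 6 members (16.2%, against 12.9% of all genes). Ifi44, a GTP-binding antiviral protein, was at 0.823, 0.689 and 0.720 CPM in F1_Dep and at 2.44, 1.62 and 1.45 CPM in F0_Ctl (log2 fold change -1.30 ± 0.38, adjusted p = 0.191 by edgeR), with no overlap and few reads. Irf7 averaged 1.24 ± 0.56 CPM in F1_Dep and 3.37 ± 2.08 CPM in F0_Ctl (-1.44 ± 0.49, adjusted p = 0.242 by edgeR). Gbp3 was at 4.06 ± 0.24 CPM in F1_Dep and 6.80 ± 2.72 CPM in F0_Ctl (-0.74 ± 0.26, adjusted p = 0.253 by edgeR). The log2 fold changes of Isg15, Ifit3, B2m and Bst2 were -0.96 ± 0.39, -0.44 ± 0.34, -0.21 ± 0.16 and 0.18 ± 0.53 (adjusted p = 0.328, 0.631, 0.615 and 0.914 by edgeR). Leaving out F0_Ctl 2 or F1_Dep 3 turned the sign for Bst2.

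Sons of normal males were also set beside normal F0 mice. In F1_Ctl 21 of 37 members were lower than in F0_Ctl (median log2 fold change -0.08, all genes 0.021), none was called by edgeR or DESeq2, edgeR called 0.0% of all genes, and 3 members (8.11%, against 5.92% of all genes) reached an unadjusted p under 0.05. The median was 0.20 without F0_Ctl 3 and -0.37 without F1_Ctl 3, so its sign rested on single libraries. Those 3 members were Zc3hav1, at 11.8 ± 2.5 CPM in F1_Ctl and 6.75 ± 1.74 CPM in F0_Ctl (0.80 ± 0.21, adjusted p = 0.75 by edgeR), Ifi44, at 0.698 ± 0.347 and 1.84 ± 0.53 CPM (-1.37 ± 0.38, adjusted p = 0.75), and Irf9, at 12.1 ± 3.1 and 17.2 ± 0.9 CPM (-0.51 ± 0.17, adjusted p = 0.75). With F1_Ctl 1 left out, Zc3hav1, Ifi44 and Stat2 were called (adjusted p = 0.0405, 0.0381 and 0.0355 by edgeR), among 400 of 16465 genes called. The log2 fold changes of Irf7, Isg15, Bst2, B2m and Ifit3 were -1.04 ± 0.48, -0.79 ± 0.38, 0.49 ± 0.52, 0.14 ± 0.16 and 0.12 ± 0.34 (adjusted p = 0.75, 0.75, 0.813, 0.814 and 0.936 by edgeR). This comparison, that of F1_Dep with F0_Ctl and that of F0_Dep with F0_Ctl share the F0_Ctl libraries.

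Whether the change in sons differed from that in stressed mice was tested as an interaction. The fitted F1 change lay above the F0 change for 29 of the 37 members, with a median difference of 0.35 on the log2 scale (all genes 0.002), and of 0.03 without F0_Ctl 3. No member was called by edgeR, which called 0.0681% of all genes, and 7 members (18.9%, against 13.4% of all genes) reached an unadjusted p under 0.05. Zc3hav1 had the smallest p, with a difference of -1.20 ± 0.29 (adjusted p = 0.123 by edgeR, and 0.0108 to 0.341 over the alternatives), and it was the 1 member called by DESeq2 (adjusted p = 0.0108). It was called by edgeR without F0_Ctl 3 (adjusted p = 0.0313), among 184 of 16432 genes called. Oas1a and Ifih1 came next, at 2.15 ± 0.81 and 1.10 ± 0.44 (adjusted p = 0.278 and 0.301 by edgeR). The differences for Isg15, Irf7, Bst2, Ifit3 and B2m were 0.81 ± 0.55, 0.67 ± 0.69, 0.58 ± 0.75, 0.23 ± 0.48 and 0.20 ± 0.22 (adjusted p = 0.574, 0.732, 0.796, 0.886 and 0.745 by edgeR).

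Members with and without an ISRE core in their promoter window were set side by side as a description. In F0_Dep against F0_Ctl, 15 of 16 members with a core and 9 of 12 tested members without one were lower, with median log2 fold changes of -0.63 and -0.49, and of -0.38 and -0.18 without F0_Ctl 3. In F1_Dep against F1_Ctl, 13 of 16 with a core were lower, at a median of -0.27, and 4 of 12 without one, at a median of 0.08. Leaving out F1_Ctl 3 changed the medians to 0.05 and 0.23, with 7 of 16 and 5 of 12 lower.

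Upstream of these genes, the interferons themselves were barely detected. None of 10 ligand genes passed the filter on low counts, 7 of them (Ifna1, Ifna4, Ifna5, Ifne, Ifng, Ifnl2 and Ifnl3) had no reads in any library, and the summed ligand level was at most 0.135 CPM. All 6 receptor genes listed were tested, and 4 of them were lower in F0_Dep than in F0_Ctl (median log2 fold change -0.21) and 4 in F1_Dep than in F1_Ctl (median -0.14), with none at an unadjusted p under 0.05 in either. For Ifnar1, a chain of the type I receptor, the log2 fold changes were 0.04 ± 0.09 in F0_Dep against F0_Ctl and 0.06 ± 0.09 in F1_Dep against F1_Ctl (adjusted p = 0.86 and 0.826 by edgeR). For Ifnar2, its partner chain, they were -0.09 ± 0.15 and -0.17 ± 0.15 (adjusted p = 0.797 and 0.65). In F1_Dep against F0_Dep the log2 fold changes of Ifnar1 and Ifnar2 were -0.10 ± 0.09 and -0.05 ± 0.15 (adjusted p = 0.504 and 0.866 by edgeR). In F1_Dep against F0_Ctl they were -0.07 ± 0.09 and -0.14 ± 0.15 (adjusted p = 0.775 and 0.745), in F1_Ctl against F0_Ctl -0.12 ± 0.09 and 0.03 ± 0.15 (adjusted p = 0.762 and 0.959), and in the interaction 0.02 ± 0.12 and -0.09 ± 0.22 (adjusted p = 0.965 and 0.909).

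Beyond the members, 88 pathway genes were listed and 70 tested, and edgeR called none in any of the 6 comparisons. Of 30 further interferon-stimulated genes tested, 22 were lower in F0_Dep than in F0_Ctl (median log2 fold change -0.22, 4 at an unadjusted p under 0.05, all lower), where 54.6% of all genes were lower and 19.7% reached that p. In F1_Dep against F1_Ctl 21 of the 30 were lower (median -0.19, 2 at an unadjusted p under 0.05), where 53.1% of all genes were lower and 14.8% reached that p. Uba7, the enzyme that activates Isg15 for conjugation, had the lowest adjusted p of the list in F0 and was picked after its values were seen, at 1.90, 1.88 and 2.29 CPM in F0_Dep and 3.105, 3.71 and 6.265 CPM in F0_Ctl (-1.11 ± 0.27, adjusted p = 0.0727 by edgeR). Of 9 class I antigen presentation genes, 8 were lower in F0_Dep than in F0_Ctl (median -0.25), 3 of them at an unadjusted p under 0.05. In F1_Dep against F0_Dep, 8 of the 9 were higher (median 0.29). Restraint genes, 9 in number, had a median of -0.03 in F0_Dep against F0_Ctl and 0.08 in F1_Dep against F1_Ctl, and 12 nucleic acid sensing genes medians of -0.10 and 0.15.

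Reads of some members may be shared with other genes, and the labels do not say whether counting used strand. Of the 50-base stretches of its transcripts, Ifit3 shared 51.2% with Ifit3b, Ifit3b shared 44.5% with Ifit3, and Oas1a shared 57.6% with Oas1g, so the split of reads within these pairs is uncertain. Gbp7 and Rtp4 shared 12.7% and 11.6% of their stretches with other genes, and the other members at most 7.13%. Irf7 overlaps Phrf1, Psmb9 overlaps Tap1, Rtp4 overlaps Masp1 and Parp9 overlaps Dtx3l on opposite strands, and Irf9 overlaps Rnf31 on the same strand, so these values are uncertain too.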

How the data were processed

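RNA of 12 hippocampi was sequenced from a stranded mRNA kit, per the labels' protocols. The authors deposited expected counts, of which 27.2% were not whole numbers, for 35812 gene IDs in 12 libraries, and FPKM per gene for 9 libraries; FPKM of F1_Ctl were not used here. HISAT2, Cufflinks 2.2.1 and mm10 are named without roles, per the submitters' processing notes, and for the tool and annotation behind the counts no source used here gives a name. The number of sample columns left unused was 0. Symbols were matched for 35202 IDs, and the 610 IDs without one held 0.579% of the counts.

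Counts were rounded and tested in edgeR 4.0.16 (R 4.3.3; TMM scaling, filterByExpr, quasi-likelihood F-test over all 4 groups, Benjamini-Hochberg over 16163 genes, called under an adjusted p of 0.05). Standard errors, approximate, are the log2 fold change over the root of F. FPKM were tested in limma 3.58.1 as log2(FPKM + 1) for genes reaching 1 FPKM in 3 or more libraries, a scale that understates the change of low genes. DESeq2 1.42.0, other scalings and filters, a replicate block and leaving out libraries were tried. The test was checked on simulated data. Library totals of 18277208 to 23083678 limit the precision of low members, some of which had under 10 reads.

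The members and lists were chosen with earlier results of these data known, so no count here is independent of that choice. Fold changes are given, in each comparison, for the 3 members of smallest p, and for Irf7, Ifit3, Isg15, Bst2, B2m, Ifnar1 and Ifnar2; called pathway genes were to be named, and none was called. The result of 1 gene named by this rule is not reported here. Uba7 and other genes outside it were picked after their values were seen. Overlaps were read from GENCODE M21 on GRCm38.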

Additional observations from a re-analysis of the deposited data

How the results depend on the processing

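Across the 25 alternatives, no member was called in most fits, and the counts that differed from 0 were as follows. In F0_Dep against F0_Ctl DESeq2 called 2 members, limma on log2(FPKM + 1) and on log2(FPKM + 0.1) called 3 each, an adjusted p under 0.1 gave 2, and leaving out F0_Ctl 3, F1_Ctl 3 and F1_Dep 1 together gave 1. In F1_Dep against F0_Dep the fit on the compared groups alone called 8, DESeq2 2, limma with either pseudocount 2 and the fit without those 3 libraries 2. That fit called 1 in F1_Dep against F1_Ctl, 1 in F1_Dep against F0_Ctl and 2 in the interaction, where DESeq2 called 1. Leaving out each library in turn gave 0 to 2 members in F0_Dep against F0_Ctl, 0 to 1 in F1_Dep against F1_Ctl, 0 to 2 in F1_Dep against F0_Dep, 0 to 3 in F1_Ctl against F0_Ctl and 0 to 1 in the interaction. Over all genes, DESeq2 called 1080 in F0_Dep against F0_Ctl, 541 in F1_Dep against F1_Ctl, 410 in F1_Dep against F0_Ctl, 1506 in F1_Dep against F0_Dep and 491 in the interaction, where edgeR called 80, 27, 0, 465 and 11. Without a filter on low counts edgeR called 144, 79, 20, 683 and 63, with the replicate block 12, 0, 1, 177 and 4, and on the compared groups alone 23, 0, 0 and 3746 in the comparisons of 2 groups. A stricter filter called 126 in F0_Dep against F0_Ctl and no TMM scaling 42 there and 6 in the interaction. The fit without the 3 libraries together called 512, 338, 629, 1347 and 487, in the order given for DESeq2. With each library left out in turn, edgeR called 5 to 477 genes in F0_Dep against F0_Ctl and 0 to 678 in F1_Dep against F1_Ctl. It called 8 to 1154 in F1_Dep against F0_Dep, 0 to 400 in F1_Ctl against F0_Ctl and 0 to 184 in the interaction. The cause of each was not tested.

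The median log2 fold change of the members in F0_Dep against F0_Ctl was -0.289 by limma on log2(FPKM + 1), -0.202 without its filter, -0.245 without the 3 libraries together, and -0.702 to -0.245 with each library left out. It ran from -0.369 to 0.196 in F1_Ctl against F0_Ctl and from 0.03 to 0.647 in the interaction. F0_Ctl 3 gave the value nearest 0 in F0 and in the interaction, and F1_Ctl 3 the highest in the interaction. The correlation of same-numbered libraries' deviations from their group means ran from -0.177 to 0.499 and exceeded 0.1 in 2 of 15 pairs. The value of 0.499 was that of F1_Ctl 3 and F0_Ctl 3, which share high choroid plexus markers. With 3 mice a group, such correlations cannot decide whether same-numbered libraries were paired. With a replicate block no member was called in any comparison, and the median was -0.551 in F0_Dep against F0_Ctl, -0.101 in F1_Dep against F1_Ctl and 0.232 in F1_Dep against F0_Dep.

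Some genes, none of them called in the comparison concerned, changed sign. Not all lay near 0 with all libraries: Bst2 was at 0.58 ± 0.75 in the interaction and 0.49 ± 0.52 in F1_Ctl against F0_Ctl. With each library left out in turn, the log2 fold changes ran from -0.659 to 0.097 for Isg15 and from -0.696 to 0.465 for Bst2 in F1_Dep against F1_Ctl, from -0.172 to 0.764 for Bst2 in F1_Dep against F0_Ctl, from -0.469 to 0.289 for Isg15 and -0.126 to 0.052 for Ifnar2 in F1_Dep against F0_Dep, and from -0.215 to 0.039 for Ifnar2 in F0_Dep against F0_Ctl. In F1_Ctl against F0_Ctl they ran from -0.17 to 0.477 for Ifit3, -0.277 to 1.073 for Bst2, -0.015 to 0.271 for B2m and -0.097 to 0.151 for Ifnar2. In the interaction they ran from -0.143 to 0.588 for Ifit3, -0.018 to 1.336 for Bst2, -0.046 to 0.118 for Ifnar1 and -0.211 to 0.045 for Ifnar2. Without the 3 libraries together, Ifnar2 was at 0.039 in F0_Dep against F0_Ctl, 0.014 in F1_Dep against F1_Ctl, 0.084 in F1_Dep against F0_Ctl and 0.045 in F1_Dep against F0_Dep. In the same fit Isg15 was at 0.176, Bst2 at 0.653 and Ifnar1 at -0.034 in F1_Dep against F1_Ctl, and Ifit3 at -0.04 and Ifnar1 at -0.041 in the interaction. Ifnar1 was at -0.002 in F0_Dep against F0_Ctl under upper quartile scaling. With no TMM scaling Ifnar2 was at -0.028 in F1_Ctl against F0_Ctl, and Ifnar2 at 0.0 in the interaction. On FPKM, Ifnar2 in F1_Dep against F0_Dep was at 0.204 with a pseudocount of 1, with or without the filter, and at 0.224 with 0.1. Of the remaining values of named genes, 1218 kept their sign and their side of the threshold and 27 passed it with the same sign. Members under 1 CPM, such as Oas1a and Oas2, rest on few reads.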
